A study of Homo sapiens with 12 samples.

Results

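The EGFR family ligands and their adaptors were represented by 10 genes of the 44 k Agilent microarray: the EGFR ligands AREG, EREG, HBEGF, TGFA, BTC and EGF, the ERBB3 and ERBB4 ligand NRG1, the receptor inhibitors ERRFI1 and LRIG1, and the adaptor GRB7. A probe was included when its RefSeq accession mapped to one of these symbols in the RefSeq gene table, without regard to its signal. The 10 genes, of 16557 genes named in this way on the array, carried 16 probes, of which 14 passed the filter on dim signals and were tested. At least 1 probe of each of the 10 genes was tested.

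The 12 one-color arrays were hybridized with cyanine3-labeled cRNA from H358/Tet-On/SRSF2 cells, 1 clone of the human lung adenocarcinoma line H358 in which a Tet-responsive promoter drives the splicing factor SRSF2. Of these, 6 arrays are labelled control, with no treatment given in the labels, and 6 are labelled SRSF2 over-expression, induced by 1 µg/mL doxycycline for 24 h. Both conditions share the clone and its Tet-On construct, in which doxycycline induces SRSF2. The sources name doxycycline for the over-expression condition only, so that the agent and the induced gene cannot be told apart. Each of the 3 slides holds 2 arrays of each condition. The study describes 3 labelings of each condition with 2 arrays each, which means that not all 6 are independent of each other, and p-values measure a spread between arrays that may in part be technical.

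The share of gene spots well above background ran from 54.2% to 67.8% over the control arrays and from 55.2% to 68.0% over those labelled SRSF2 over-expression. Of the epithelial markers EPCAM, CDH1, KRT7, KRT8, KRT18 and KRT19, all 9 probes were well above background on at least 5 arrays of each condition, as were both probes of the lung transcription factor NKX2-1 and the SFTPC probe, whereas the probe of the surfactant gene SFTPB was so on 2 control arrays and no SRSF2 array, and PTPRC, CDH5, COL1A2 and DCN, which mark leukocytes, endothelium and fibroblasts, were well above background on no array. The probes of CD14 and PECAM1 and single probes of VWF and CD3E, also markers of such cells, were dim but clearly above background on at least 5 arrays of each condition, with mean control log2 levels from -3.86 to -2.93. The single SRSF2 probe, A_23_P77776, went against the label: its log2 level relative to the array's 75th percentile was 3.92 ± 0.10 (SD, n = 6) under the control label and 2.47 ± 0.10 (SD, n = 6) under the label of over-expression, a difference of -1.46 (limma adjusted p = 1.68e-09). Whether this probe detects the induced transcript was not tested. The study also measured SRSF2 by quantitative RT-PCR and western blotting, which were not analysed here. Below, "rose" and "fell" therefore compare the arrays labelled SRSF2 over-expression (called SRSF2 arrays) with the control arrays and follow the labels only.

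Receptors of the EGFR family are tyrosine kinases at the cell surface that act in pairs. Their ligands are made as membrane-bound precursors that proteases cut free, ERBB2 has no known ligand of its own, and ERBB3 has little kinase activity and signals through its partners. In lung adenocarcinoma the family is a target of kinase inhibitors, and ligands such as AREG and NRG1 can act on the cells that release them.

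EREG, AREG and BTC lie in the same stretch of chromosome 4, and EGF lies farther along it. The 250 bases before the annotated start of these ligand genes are shown because EREG, AREG and BTC are neighbors, of which EREG fell, and because EGF had a change of the other sign. They were read from RefSeq on GRCh38.p14, 5′ to 3′ on the strand of the gene: EREG at chr4:74364895-74365144 (forward strand), AREG at chr4:74444886-74445135 (forward), BTC at chr4:74794524-74794773 (reverse) and EGF at chr4:109912633-109912882 (forward). Capitals mark matches, on either strand, to the letters of a TATA box (TATAAA), a GC box (GGGCGG), the CCAAT letters of a CAAT-type box, a cAMP response element (TGACGTCA), an AP-1 site (TGANTCA) or an E-box (CACGTG).
EREG: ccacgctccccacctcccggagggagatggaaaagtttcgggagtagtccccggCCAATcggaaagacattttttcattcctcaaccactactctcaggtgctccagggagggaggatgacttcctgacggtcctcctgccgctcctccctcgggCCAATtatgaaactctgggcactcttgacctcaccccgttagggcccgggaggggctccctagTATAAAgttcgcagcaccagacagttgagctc
AREG: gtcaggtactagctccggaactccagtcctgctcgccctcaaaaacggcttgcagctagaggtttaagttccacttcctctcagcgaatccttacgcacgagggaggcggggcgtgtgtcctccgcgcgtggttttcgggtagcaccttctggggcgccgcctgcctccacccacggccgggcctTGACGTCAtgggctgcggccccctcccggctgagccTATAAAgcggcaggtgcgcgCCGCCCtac
BTC: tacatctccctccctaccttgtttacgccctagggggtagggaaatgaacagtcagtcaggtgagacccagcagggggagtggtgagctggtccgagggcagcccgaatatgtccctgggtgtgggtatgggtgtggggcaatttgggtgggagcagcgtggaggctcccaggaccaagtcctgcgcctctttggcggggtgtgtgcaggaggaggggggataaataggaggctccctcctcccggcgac
EGF: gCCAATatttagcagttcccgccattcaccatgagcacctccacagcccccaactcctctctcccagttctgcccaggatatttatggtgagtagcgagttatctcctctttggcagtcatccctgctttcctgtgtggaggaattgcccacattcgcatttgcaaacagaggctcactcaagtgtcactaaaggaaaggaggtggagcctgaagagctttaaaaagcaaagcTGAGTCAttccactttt

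EREG and AREG each hold a TATA box, with its first base 32 bases before the start of EREG and 29 bases before that of AREG. Among 35116 promoter windows of the same length, 3763 hold these letters. AREG also holds a cAMP response element, which 1.65% of windows hold, and a GC box, which 42.6% hold. EREG holds CCAAT at 2 places, and these letters are present in 32% of windows. EGF holds CCAAT once and, 17 bases before its start, an AP-1 site, which 6.57% of windows hold. BTC matched none of the motifs in this window, and the E-box, found in 6.34% of windows, was in none of the 4. No marked motifs overlapped. The GC content was 58% for EREG, 65.2% for AREG, 62% for BTC and 48.8% for EGF, with a median of 58% over all windows. These matches are a description of letters, and 8 of the 10 members had an entry in this table.

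**Figure D1:**
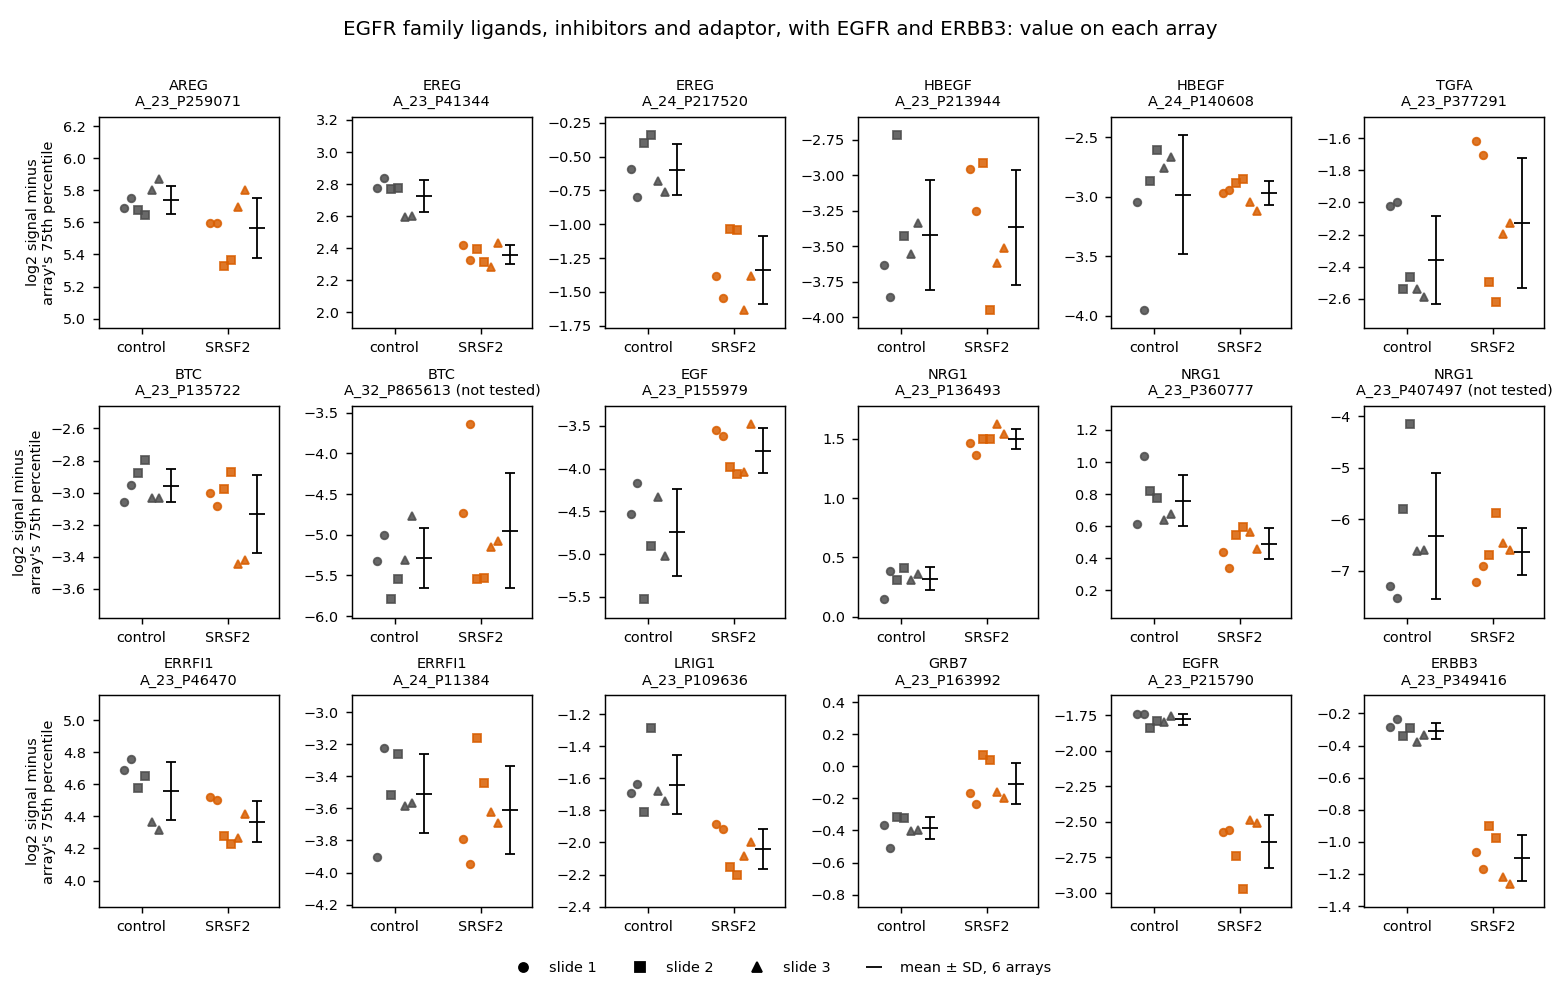
Log2 signal minus the array's 75th percentile (vertical axis, scaled separately for each probe) on the 6 control arrays (grey) and the 6 arrays labelled SRSF2 over-expression (orange) for the 16 member probes, EGFR and ERBB3, with the slide given by the symbol and the mean ± SD as a bar. NRG1 A_23_P136493, EGFR and ERBB3 separate completely by condition, whereas the HBEGF, TGFA and AREG values overlap.

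Of the 14 tested probes, 7 passed the test at an adjusted p of at most 0.05 (limma), 3 of which rose and 4 fell, in 5 genes. Among all 24330 tested probes 57.7% passed, 29.7% upwards and 28.0% downwards, so the share among the members, 50%, was near the background. Only NRG1 A_23_P136493 changed at least 2-fold, against 7.00% of all tested probes. The 6 values of one condition lay entirely above those of the other for 7 of the 14 probes, against 40.2% of all tested probes. The median log2 change was -0.14 for the members and 0.01 for all tested probes. EGF is 1 of the 7, and its probe passed the filter only through the condition in which it was brighter; without it, 6 of 13 probes passed. These shares say nothing of the members as a group, and the results below concern single genes.

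EREG, encoding epiregulin, a ligand of EGFR and ERBB4, fell at both of its probes. For A_23_P41344, log2 levels (on the same scale as all levels here) ran from 2.60 to 2.84 with a median of 2.77 on control arrays, and from 2.28 to 2.43 with a median of 2.36 on SRSF2 arrays. For A_24_P217520 they ran from -0.80 to -0.34 (median -0.64) on control arrays and from -1.63 to -1.04 (median -1.38) on SRSF2 arrays. The conditions did not overlap at either probe. The log2 change was -0.37 (SE 0.056, limma adjusted p = 0.000102) for A_23_P41344, a level 1.29-fold lower, and -0.74 (SE 0.12, limma adjusted p = 0.000172) for A_24_P217520, 1.67-fold lower. The fall was present on each slide, at -0.43, -0.42 and -0.24 for the first probe and -0.77, -0.67 and -0.78 for the second. Both probes carry the same accession, and the second fell by 0.37 more on the log2 scale when the probes were compared within arrays (exact permutation test over 924 arrangements, two-sided, p = 0.0195, adjusted p = 0.039 over 4 such pairs). This difference between the probes passed the adjusted threshold when control array 2, SRSF2 array 3 or SRSF2 array 4 was left out, and did not when any of the other 9 arrays was (adjusted p from 0.0563 to 0.0823). With scaling on spike-in controls the log2 changes were -0.16 (adjusted p = 0.609) and -0.54 (adjusted p = 0.0692), and with normexp background correction A_23_P41344 gave -0.18 (adjusted p = 0.664).

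AREG, encoding amphiregulin, had 1 probe, A_23_P259071, with log2 levels from 5.65 to 5.87 (median 5.72) on control arrays and from 5.33 to 5.80 (median 5.60) on SRSF2 arrays. The values overlapped, and the log2 change of -0.18 (95% interval -0.36 to 0.003, limma adjusted p = 0.0853) did not pass. With replicate number as a block its adjusted p was 0.0166, with slide as a block 0.00422, without SRSF2 array 6 it was 0.0266 and without slide 3 it was 0.0495. With slide as a block on slide means, which count the arrays of 1 condition on a slide as 1 replicate, it was 0.111.

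EGF, the founding ligand of the family, was dim, with log2 levels from -5.53 to -4.17 (median -4.71) on control arrays and from -4.06 to -3.48 (median -3.80) on SRSF2 arrays. Its probe A_23_P155979 exceeded background clearly on 2 control arrays and 5 SRSF2 arrays, so that it was tested only because of the SRSF2 arrays. Keeping probes in this way favors those that are brighter on the SRSF2 arrays. The size of the difference is therefore uncertain. Control values below the lowest signal well above background of any probe on the same array were raised to that signal. On the background-subtracted scale used here, EGF was then 1.53-fold higher on SRSF2 arrays. That signal is not the detection limit of this probe, so the fold is not a strict lower bound. The measured values gave a log2 change of 0.96 (SE 0.212, limma adjusted p = 0.00178), and on the 3 slides it was 0.77, 1.19 and 0.92. It passed 2-fold when any of control arrays 1, 2 and 5 or SRSF2 arrays 4 and 5 was left out, with log2 changes from 1.00 to 1.07, and without slide 1 (1.05). The size depended on the handling of background: it was 0.32 without background subtraction and -0.14 with normexp correction (adjusted p = 0.899).

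The remaining EGFR ligands did not pass the test. HBEGF, encoding heparin-binding EGF-like growth factor, had 2 probes with log2 changes of 0.05 (A_23_P213944, 95% interval -0.40 to 0.51, limma adjusted p = 0.844) and 0.01 (A_24_P140608, -0.40 to 0.43, adjusted p = 0.958). Levels of A_24_P140608 ran from -3.95 to -2.61 on control arrays and from -3.12 to -2.85 on SRSF2 arrays. On slide 1 both HBEGF probes were higher on SRSF2 arrays, by 0.64 and 0.54, and on slides 2 and 3 both were lower, by -0.36 and -0.12 for A_23_P213944 and -0.13 and -0.37 for A_24_P140608. Without slide 1, A_24_P140608 gave -0.25 (limma adjusted p = 0.0366) and A_23_P213944 gave -0.24 (adjusted p = 0.456).

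TGFA, encoding transforming growth factor alpha, had log2 levels of -2.36 ± 0.27 (SD, n = 6) on control arrays and -2.13 ± 0.41 (SD, n = 6) on SRSF2 arrays, which overlapped, with a log2 change of 0.23 (95% interval -0.17 to 0.63, limma adjusted p = 0.302). Its level differed by slide in both conditions, the arrays of slide 1 being the brightest, and with replicate number as a block the adjusted p was 0.0491. BTC, encoding betacellulin, gave -0.17 at A_23_P135722 (95% interval -0.40 to 0.05, limma adjusted p = 0.164), with the 2 SRSF2 arrays of slide 3, at -3.44 and -3.42, below all other arrays. With slide as a block the adjusted p was 0.0251 for BTC and 0.016 for TGFA, and with the same block on slide means it was 0.173 and 0.127. The other BTC probe, A_32_P865613, exceeded background clearly on 1 control array and 2 SRSF2 arrays and was not tested.

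NRG1, encoding the neuregulin 1 proteins, is spliced and started at several promoters into isoforms that bind ERBB3 or ERBB4, and its probes moved in opposite directions. A_23_P136493, which carries the accession of the GGF2 isoform (NM_013962), had log2 levels from 0.15 to 0.41 (median 0.34) on control arrays and from 1.37 to 1.62 (median 1.50) on SRSF2 arrays. Every SRSF2 array lay above every control array. The log2 change was 1.18 (SE 0.058, 95% interval 1.05 to 1.30, limma adjusted p = 5.33e-09), a level 2.26-fold higher, and it was 1.15, 1.14 and 1.25 on the 3 slides. It passed the test and the 2-fold threshold under all 30 alternative settings, with log2 changes from 1.07 to 1.38.

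A_23_P360777, which carries the accession of the HRG-beta2 isoform (NM_013957), had log2 levels from 0.62 to 1.04 (median 0.73) on control arrays and from 0.34 to 0.60 (median 0.50) on SRSF2 arrays, which did not overlap. Its log2 change was -0.27 (SE 0.076, limma adjusted p = 0.00846), with -0.44, -0.23 and -0.15 on the 3 slides. When same-slide arrays of each condition were averaged to 1 replicate it was no longer past the threshold (adjusted p = 0.0639), but it was with slide as a block on these means (adjusted p = 0.0405). With spike-in scaling the change was -0.06 (adjusted p = 0.852). The call was also lost with normexp and with spike-in scaling without slide 1. Compared within arrays, the changes of these 2 probes differed by 1.45 on the log2 scale (two-sided exact permutation test, p = 0.00216, which is the lowest possible here, adjusted p = 0.00866 over 4 pairs), which does not depend on the scaling between arrays.

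The NRG1 probe with the accession of the SMDF isoform (NM_013959), A_23_P407497, was well above background on 1 control array and on no SRSF2 array and was not tested. A further probe, A_23_P315815 (NM_013961), was named NRG1 only in the study's supplementary table and lay outside the rule for members. It ran from 0.92 to 1.25 on control arrays and from 2.13 to 2.31 on SRSF2 arrays, a log2 change of 1.16 (SE 0.061, limma adjusted p = 8.96e-09), and so moved like the GGF2 probe. The files hold no probe sequences, so which other NRG1 transcripts each probe detects is not known here, and a difference between probes cannot be assigned to a transcript.

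Among the inhibitors of the receptors, LRIG1 fell and ERRFI1 did not pass. LRIG1, a membrane protein that promotes receptor degradation, had log2 levels from -1.81 to -1.29 (median -1.68) on control arrays and from -2.20 to -1.89 (median -2.04) on SRSF2 arrays, with no overlap. The log2 change at A_23_P109636 was -0.40 (SE 0.089, limma adjusted p = 0.0019), 1.32-fold lower, and -0.24, -0.63 and -0.33 on the 3 slides. With spike-in scaling it was -0.19 (adjusted p = 0.548) and with normexp -0.44 (adjusted p = 0.378).

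ERRFI1, also known as MIG6, which binds and blocks the kinase domain, had log2 changes of -0.19 at A_23_P46470 (95% interval -0.38 to -0.0005, limma adjusted p = 0.08) and -0.10 at A_24_P11384 (-0.41 to 0.20, adjusted p = 0.565). Levels of A_23_P46470 ran from 4.32 to 4.76 on control arrays and from 4.23 to 4.52 on SRSF2 arrays and overlapped. That probe passed in 7 of the 30 alternative settings, among them replicate number as a block (adjusted p = 0.0408), slide as a block (adjusted p = 0.0123), the data without control array 5 (adjusted p = 0.0442), without control array 6 (adjusted p = 0.0296) and without slide 3 (adjusted p = 0.0233). It did not with slide as a block on slide means (adjusted p = 0.129).

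GRB7, an SH2 adaptor that binds ERBB2 and ERBB3 and lies beside ERBB2 in the genome, rose. Its log2 levels at A_23_P163992 ran from -0.51 to -0.32 (median -0.38) on control arrays and from -0.23 to 0.07 (median -0.16) on SRSF2 arrays, without overlap. The log2 change was 0.28 (SE 0.064, limma adjusted p = 0.00239), 1.21-fold higher, with 0.24, 0.37 and 0.22 on the 3 slides. The call was lost with the slide means as replicates (adjusted p = 0.0713, but 0.0229 with slide as a block on them), with normexp (0.11, adjusted p = 0.586) and with spike-in scaling (0.48, adjusted p = 0.101).

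**Figure D2:**
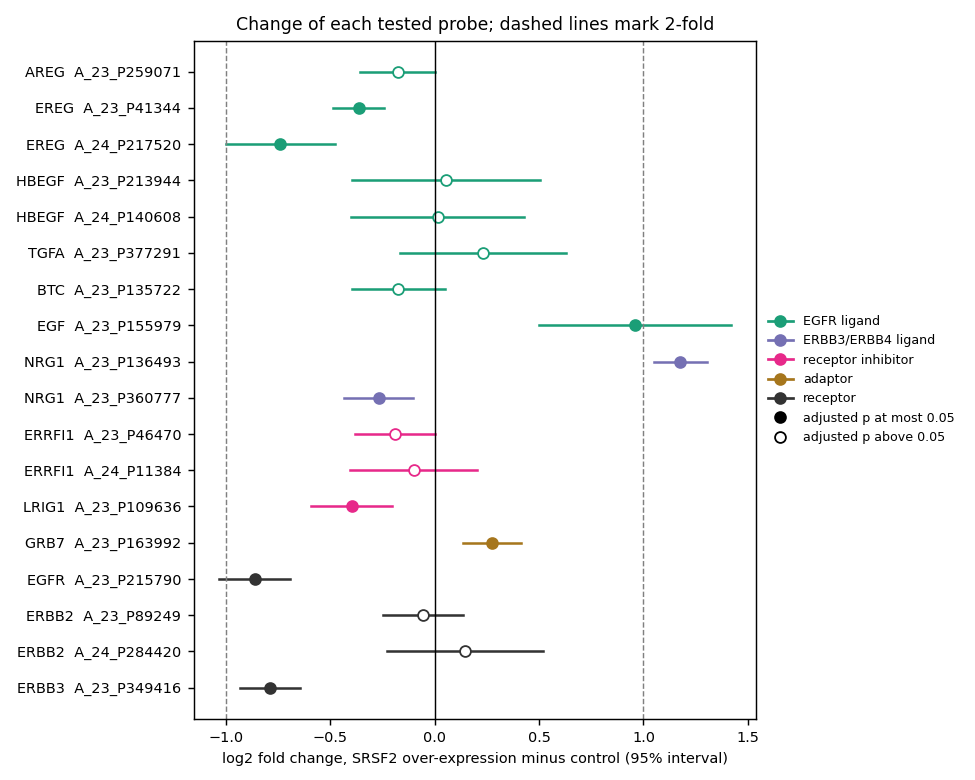
Log2 fold change of SRSF2 arrays against control arrays (horizontal axis) with its 95% interval for each tested member probe and for the receptors, colored by role and filled where the adjusted p was at most 0.05. Only the point of NRG1 A_23_P136493 lies beyond the dashed 2-fold lines, and the EGFR and ERBB3 intervals lie below zero.

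The receptors beside which the members were set fell. EGFR (A_23_P215790) had log2 levels from -1.84 to -1.74 on control arrays and from -2.97 to -2.49 on SRSF2 arrays, with a change of -0.86 (SE 0.078, limma adjusted p = 1.04e-06), 1.82-fold lower. ERBB3 (A_23_P349416), the receptor of NRG1, ran from -0.38 to -0.23 and from -1.26 to -0.90, with a change of -0.79 (SE 0.065, limma adjusted p = 4.62e-07), 1.73-fold lower. With normexp, EGFR gave -0.67 (adjusted p = 0.164). ERBB2 did not pass at either probe, with log2 changes of -0.06 (A_23_P89249, 95% interval -0.25 to 0.14) and 0.15 (A_24_P284420, -0.23 to 0.52). Neither ERBB4 probe passed the filter on dim signals.

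Each member probe was then compared with EGFR and with ERBB3 on the same arrays, by the difference of their log2 values, which the scaling of the arrays does not affect. Of the 14 probes, 13 changed by a different amount from EGFR and 13 from ERBB3 (exact permutation tests over 924 arrangements, two-sided, adjusted over 29 comparisons). In every one of these 26 pairs the log2 change of the member was the higher. Both receptors fell, and most probes on the array differed from them in this way: among 23739 tested probes without missing values 87.0% changed by a different amount from EGFR and 85.8% from ERBB3, with 85.1% and 83.1% having the higher change (the same exact test, adjusted over all these probes, by which 13 of the 14 member probes again differed from each receptor). These counts are therefore no result about the members. The exception was EREG A_24_P217520, whose change differed from that of EGFR by 0.12 (exact p = 0.537) and from that of ERBB3 by 0.05 (exact p = 0.649). The largest difference was that of NRG1 A_23_P136493, by 2.04 against EGFR and 1.97 against ERBB3 (exact p = 0.00216 each, adjusted p = 0.00285). EGFR and ERBB3 changes differed by -0.07 (exact p = 0.55). With normexp, 4 of the 28 pairs passed.

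**Figure D3:**
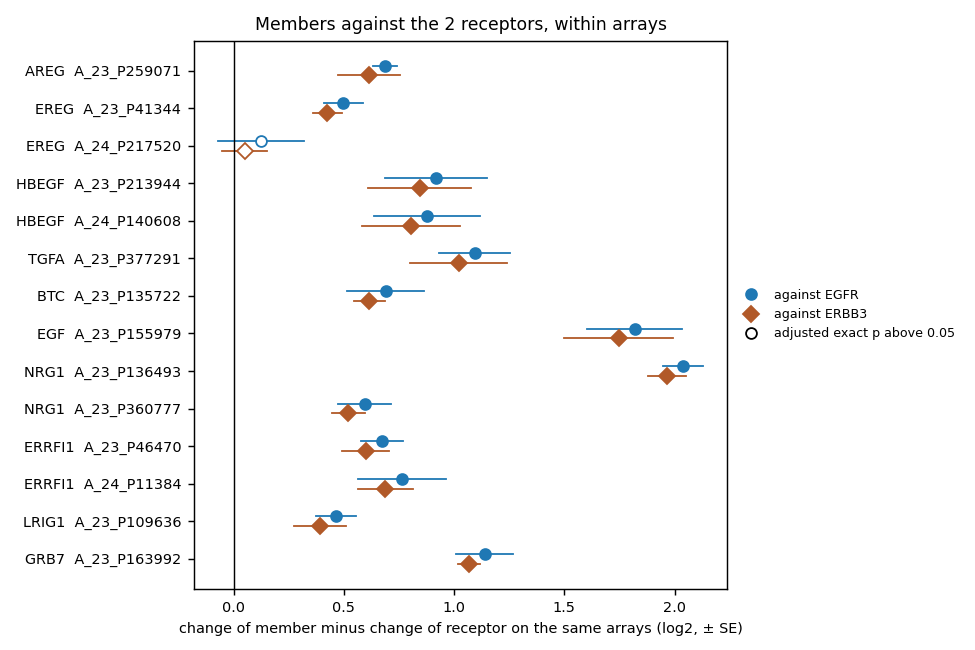
Change of each tested member probe minus the change of EGFR (circles) or ERBB3 (diamonds) on the same arrays (horizontal axis, log2, with the SE as a bar), with open symbols where the adjusted exact p was above 0.05. EREG A_24_P217520, at 0.12 and 0.05, lies next to zero, and NRG1 A_23_P136493, at 2.04 and 1.97, lies farthest to the right.

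The other genes of the pathway were read from a list of 44 receptors, ligands, sheddases and iRhoms, adaptors, effectors and negative regulators, of which NRG3 and SOS2 had no probe named here. Of 51 tested probes, 31 passed (60.8%, against 57.7% of all tested probes). Of the 51, 15 rose and 16 fell, against 29.7% and 28.0% of all tested probes. Among the 15 are probes of GAB1, SOCS4 and SOCS5 that passed the filter only through the SRSF2 arrays, which favors rises. A change of at least 2-fold was found for 5, against 7.00% of all tested probes. These counts include the 4 tested receptor probes given above, of which 2 passed, EGFR and ERBB3, and both fell. None of the 4 probes of the other ligands EPGN, NRG2 and NRG4 passed the filter on dim signals. With spike-in scaling 17 probes passed, against 26.7% of all tested probes, and with normexp 9, against 11.6%.

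Ligand release was represented by the sheddases ADAM10 and ADAM17 and the iRhoms that carry ADAM17 to the cell surface. RHBDF2, encoding iRhom2, had the largest fall of the list, from a mean log2 level of 3.29 ± 0.08 (SD, n = 6) on control arrays to 1.77 ± 0.12 (SD, n = 6) on SRSF2 arrays, a change of -1.52 (limma adjusted p = 1.29e-09), and it passed under all 30 alternatives. RHBDF1 also fell, by 0.59 on the log2 scale (limma adjusted p = 0.000265). ADAM17 rose by 0.33 at 1 probe (A_23_P143120, adjusted p = 0.000437) and gave 0.14 at the other (A_32_P129621, adjusted p = 0.134), and ADAM10 gave -0.11 (adjusted p = 0.133). RHBDF1, ADAM10 and ADAM17 were named after their values were seen, to complete the group.

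Among adaptors and effectors, 16 of 28 tested probes passed, a share near the 57.7% of all tested probes. Of the 28, 7 rose and 9 fell, against 29.7% and 28.0% of all tested probes. The largest falls were those of the exchange factor VAV2 (-1.31, limma adjusted p = 6.4e-08), phospholipase C gamma 1, encoded by PLCG1 (-1.06, adjusted p = 4.29e-08), and the GRB7 relative GRB10 (-1.04 at A_24_P235266, adjusted p = 2.17e-06, and -0.85 at A_23_P122863, adjusted p = 3.26e-07). GRB14, the remaining member of the GRB7 group, fell by 0.59 on the log2 scale (adjusted p = 3.45e-05), so that GRB7 was the member of this group that rose, and GRB14 was named after its value was seen. The largest rises were those of the adaptors CRKL (1.23 at A_23_P40535, adjusted p = 0.000705, and 0.58 at A_24_P935009, adjusted p = 0.000903), GAB1 and CRK (0.69 at A_23_P83556, adjusted p = 1.62e-05, and 0.57 at A_24_P270814, adjusted p = 1.98e-05). GAB1 exceeded background clearly on 2 control arrays and 5 SRSF2 arrays and was tested only because of the latter. With dim control values raised as for EGF it was 1.64-fold higher on SRSF2 arrays, which is not a strict lower bound. The measured log2 change was 0.87 (limma adjusted p = 9.6e-06). The change was 0.31 without background subtraction (limma adjusted p = 0.00806) and -0.16 with normexp (adjusted p = 0.877). With normexp the calls of CRKL A_23_P40535 (0.007, adjusted p = 0.995) and CRK A_23_P83556 (0.22, adjusted p = 0.596) were also lost, and that of CRKL was lost with spike-in scaling without slide 1 (1.22, adjusted p = 0.0577).

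Among negative regulators, 10 of 14 tested probes passed (71.4%, against 57.7% of all tested probes), 7 rose and 3 fell, against 29.7% and 28.0% of all tested probes. Of the 7, SOCS4 A_23_P151700 and SOCS5 A_23_P5813 passed the filter only through the SRSF2 arrays. This favors rises, so the share and the split are no result about these genes. The 3 that fell were the ubiquitin ligases of the CBL family, which mark active receptors for degradation, with log2 changes of -0.96 for CBLC (limma adjusted p = 6.2e-08), -0.56 for CBL (adjusted p = 0.00084) and -0.27 for CBLB (adjusted p = 0.00191). The relatives of LRIG1 moved the other way: LRIG2 rose by 0.93 (adjusted p = 3.8e-09) and LRIG3 by 0.30 (adjusted p = 0.00383). SOCS5, an adaptor of a ubiquitin ligase complex, rose by 0.25 at A_24_P328492 (adjusted p = 0.048). Its other probe, A_23_P5813, exceeded background clearly on 3 control arrays and all 6 SRSF2 arrays. With dim control values raised as for EGF this probe was 1.58-fold higher on SRSF2 arrays, which is not a strict lower bound. The measured log2 change was 0.73 (limma adjusted p = 0.00409). The change was 0.35 without background subtraction (limma adjusted p = 0.00999) and -0.20 with normexp (adjusted p = 0.827). CBL, CBLB, LRIG3 and SOCS4 were named after their values were seen.

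**Figure D4:**
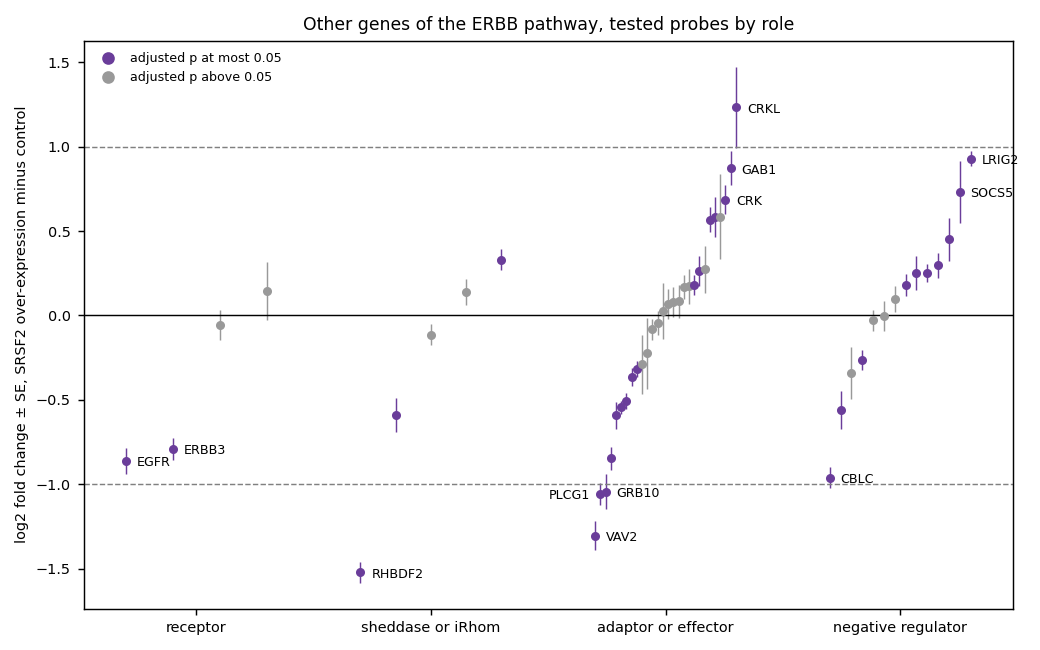
Log2 fold change ± SE of SRSF2 arrays against control arrays (vertical axis) for the 51 tested probes of the pathway list, grouped by role, in purple where the adjusted p was at most 0.05, with dashed lines at 2-fold. RHBDF2 at -1.52 and CRKL at 1.23 mark the ends of the range.

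**Figure D5:**
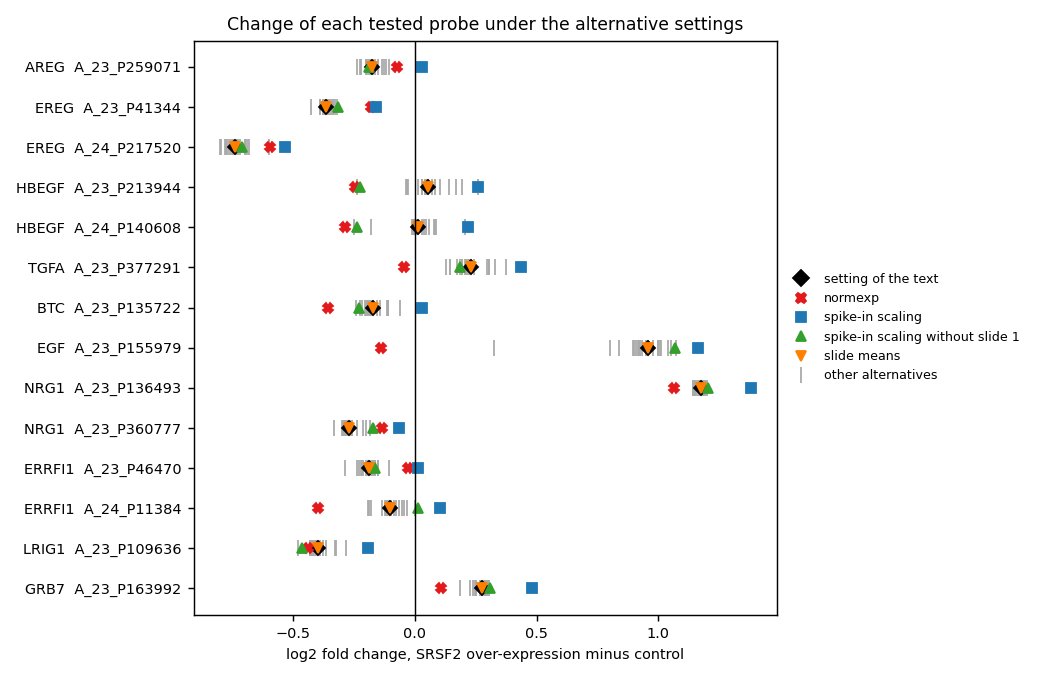
Log2 fold change of each tested member probe (horizontal axis) in the setting of the text (black diamonds) and in the alternative settings, with normexp, both spike-in scalings and the slide means as symbols and the others as grey ticks. NRG1 A_23_P136493 stays between 1.07 and 1.38, whereas EGF ranges from -0.14 to 1.16.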

How the data were processed

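Gene expression was measured on 12 arrays, 6 of each condition as GEO's labels give it. For each array the authors deposited the spot table written by Feature Extraction 10.7.3.1, whose processed intensity is the signal of a spot after background subtraction. They also deposited a table of log2 values, of which 80.1% lay within 0.01 of the log2 intensity minus the 75th percentile of the array, centered per probe, after 1 shift per array. The authors' normalization is not given in the sources used here; GeneSpring GX and a t-test adjusted by Benjamini-Hochberg are named in their methods.

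From the intensities, control spots and outlier spots were left out, spots of 1 probe were averaged as log2 values, and each array was scaled by subtracting its 75th percentile over gene probes. No gene spot was saturated. The filter kept 24330 of 41000 probes: those present on enough arrays (no more than 25% missing) and well above background on 5 or 6 arrays of either condition. The conditions were compared in limma 3.58.1 (R 4.3.3) by lmFit and eBayes, without covariates, with Benjamini-Hochberg adjustment over all 24330. A probe passed at an adjusted p of at most 0.05. The fit was tested on simulated data. Summaries and exact permutation tests were computed in Python 3.11.15. Levels of different probes were not compared.

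The files give accessions but no symbols. Of 25868 probes with a RefSeq accession, 23958 were named through the RefSeq table of GRCh38.p14. The annotation of the files is of another build, so no probe coordinates are given. The members and lists were chosen with earlier results of these data known. Named are every probe of the members, of the 4 receptors and of SRSF2, and from the pathway list the 5 largest rises and 5 largest falls among probes that passed, along with genes marked as named after their values were seen.

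Arrays carry numbers 1 to 6 within each condition. The deviations of same-numbered arrays from their condition means were correlated (0.28 to 0.64 over 6 pairs). Those of differently numbered arrays sharing a slide were also positively correlated (0.33 to 0.65), whereas all correlations across slides were negative (-0.48 to -0.05). Deviations from a condition mean sum to zero, so positive values within slides force negative ones across slides on average. The latter therefore add no separate support. The positive correlations within slides gave the slide as the unit of pairing. This pairing was used only for the differences given per slide and in the alternatives. Neither the main fit nor the exact permutation tests were paired by slide. Precision is limited by the number of arrays and, where probes are dim, by their signal over background.

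Alternatives were scaling on the median or on 7 spike-in probes, quantile normalization, normexp (offset 50), omitted background subtraction, the deposited table, no filter or a stricter one, all outlier spots included, the methods' t-test, a block for replicate number or for slide, slide means as replicates, and each slide or array left out. The median spot intensity was used for normexp, since the mean is not among the deposited columns. Chosen after seeing the data were slide means with slide as a block, spike-in scaling without slide 1, and all alternatives for the within-array comparisons, the other receptors, SRSF2 and the named genes of the pathway list.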

Additional observations from a re-analysis of the deposited data

Results flagged for a closer look

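In groups of 6 arrays, a value whose gap to its nearest neighbor took up an unusually large part of the range (Dixon's test at the 95% level) was found in 2 of 36 groups, where chance gives about 1 in 20. For HBEGF A_24_P140608, control array 2 lay at a log2 level of -3.95, while the other control arrays lay between -3.04 and -2.61. Without that array the log2 change of HBEGF was -0.18 (limma adjusted p = 0.0802). For LRIG1 A_23_P109636, control array 4 lay at -1.29, while the others lay between -1.81 and -1.64. Without that array the log2 change of LRIG1 was -0.33 (limma adjusted p = 0.0016).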

How the results depend on the processing

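Across 30 alternatives, NRG1 A_23_P136493, ERBB3, SRSF2 and RHBDF2 kept their direction and passed in each. The same held for VAV2 A_24_P84419, GRB10 A_24_P235266, CBLC, LRIG2 and the NRG1 probe outside the rule, A_23_P315815. Of the 419 comparisons of a member probe with an alternative, 367 kept the direction and the side of the threshold, 15 lost the call, 15 gained it and 22 changed sign, among which EGF was the only probe that had passed. The 7 member probes past the threshold became 2 with normexp, 11 with slide as a block (7 with the same block on slide means, where AREG, TGFA, BTC and ERRFI1 A_23_P46470 no longer passed), 2 with spike-in scaling and 3 with spike-in scaling without slide 1, and were 10 with the replicate block. The share of all tested probes that passed moved as well. It was 11.6% with normexp, 70.1% with slide as a block and 54.8% with the same block on slide means. It was 26.7% with spike-in scaling, 25.3% with spike-in scaling without slide 1, and 65.8% with the replicate block. The count at 2-fold became 2, the second being EGF, with spike-in scaling (also without slide 1) and without slide 1, and was 1 to 2 with single arrays left out. The 31 probes of the pathway list became 9 with normexp, 17 with spike-in scaling and 17 with spike-in scaling without slide 1. EGFR gave -0.67 (adjusted p = 0.164) with normexp.

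Changes of sign with spike-in scaling were AREG 0.028, BTC 0.030, ERRFI1 A_23_P46470 0.014, ERRFI1 A_24_P11384 0.10 and ERBB2 A_23_P89249 0.15. Spike-in scaling moved the median of all probes by 0.20 (log2) with slide 1 and by 0.014 without it, each against the 75th percentile scaling of the same arrays, and 26.7% of all probes passed. It moves every probe by this amount and so keeps the order of the members. With spike-in scaling without slide 1 the signs changed for HBEGF (-0.23 at A_23_P213944, -0.24 at A_24_P140608) and ERRFI1 A_24_P11384 (0.014). With normexp they changed for HBEGF (-0.25 and -0.29), TGFA (-0.046), EGF (-0.14), ERBB2 (0.079 and -0.29), SOCS5 (-0.20) and GAB1 (-0.16). Normexp left a spread of log2 values per array of 1.43 to 2.47, against 2.62 to 2.82, moved the median by -0.11, and 11.6% of all probes passed. Without slide 1 the signs changed for HBEGF (-0.24 and -0.25) and ERRFI1 A_24_P11384 (0.00040). HBEGF A_24_P140608 also gave -0.0100 with median scaling and -0.0040 with quantile normalization, and with single arrays left out its change ran from -0.18 to 0.089 and that of A_23_P213944 from -0.037 to 0.19.

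Of 4 pairs of probes of a gene, 2 differed, 1 without background subtraction or with normexp, and 1 to 2 with single arrays left out. With a slide left out the count was 0, since with 4 arrays against 4 a single pair cannot reach an exact p under 0.0286. The 26 pairs of member and receptor became 4 with normexp. The causes were not tested. The replicate block changed no other call among the members than those of AREG, TGFA and ERRFI1 A_23_P46470. For EGF, GAB1 and SOCS5 the signal over background limits what can be said of the size of the change.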
